A study of Mus musculus with 2 samples.

Results

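Cohesin is a ring-shaped protein complex that holds sister chromatids together and folds chromosomes into loops. The 10 genes described here encode its ring (Smc1a, Smc3, Rad21), the alternative STAG subunits bound to the ring (Stag1, Stag2), the pair that loads it onto DNA (Nipbl, Mau2) and the proteins that take part in its release (Wapl, Pds5a, Pds5b). They were chosen by name, as the 10 members of the complex and its loaders and releasers, from 37820 genes of a gene table and from 87641 transcripts of a transcript table, of which 51 belong to these genes. In chromosome folding, the loader drives extrusion of a DNA loop through the ring, CTCF on the DNA stops it, and WAPL with PDS5 opens the ring to end the loop. In blood, STAG2, RAD21, SMC1A and SMC3 are known for mutations in myeloid leukaemia.

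The series holds the expression data of a study on genome folding in blood stem cells before and after birth (haematopoietic stem cells, HSCs). Adult HSCs from bone marrow of B6129SF1 mice, 6 to 8 weeks old, are described by 2 samples, replicates 1 and 2; no treatment or engineered allele is named. Fetal HSCs came from embryonic day 14.5 liver according to the protocol text; no sample of that group was analysed here. Each table has columns headed FL and BM, in FPKM (fragments scaled by feature length and library total), with 1 authors' value per feature. Values per replicate were not analysed here, the depth is unknown, and no value below has an SD, an interval or a test; "higher" and "lower" compare columns only.

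The column headers could not be taken at face value, and the cohesin genes show this directly. For all 10, the gene-table BM value lay within 10% of a constant ratio (1.05) to the transcript-table FL value, the ratio being the median over 3520 genes with a single linked transcript. Single values of this quotient ran from 0.991 for Wapl to 1.05 for Smc1a. None of the 10 genes lay that close when the BM columns were paired, and 1 did when the FL columns were paired. Over the single-transcript genes the shares within 10% were 74.6% for that pairing, 16.3% for the BM columns and 13.4% for the FL columns. Which of the 2 headers is right for the values they share could not be settled, so these values may be those of adult bone marrow or of fetal liver. Each direction from FL to BM below is therefore one between column headers, and it may not be one from fetal to adult cells. The transcript table is described first, each value is given with its table and header, and the gene table serves as a check of the sums over transcripts. Both tables were scaled separately, so levels set across them are approximate.

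Among the blood and HSC markers of the transcript table, Kit, Gata2 and Meis1 were at 181, 165 and 162 FPKM under BM and at 112, 68.3 and 66.8 FPKM under FL. Markers of several other cell types, but not of all, had lower values in BM. All 8 erythroid markers were at least 2-fold lower in BM, against 8.82% of all expressed genes (summed level 739 FPKM under FL and 35.9 FPKM under BM), as were all 6 expressed macrophage markers of 7 (212 and 4.09 FPKM over the list, with Csf1r at 17.8 and 0.0779 FPKM) and 4 of 6 neutrophil and monocyte markers (486 and 94.3 FPKM). Of 10 proliferation genes 7 were at least 2-fold lower in BM (932 and 441 FPKM), while Mki67 had near-equal values (32.1 and 32.5 FPKM). Of 6 endothelial markers 2 were at least 2-fold lower in BM (57.3 and 42.5 FPKM), and Pecam1 (16.9 and 19.3 FPKM) and Tek (12.3 and 12.6 FPKM) were not lower. The stromal markers were mixed (10.7 and 13.5 FPKM). Of 3 expressed markers of 5, 2 were at least 2-fold higher in BM, against 13.3% of all expressed genes. These were Col1a2 (1.67 and 5.74 FPKM) and Pdgfrb (0.874 and 2.46 FPKM). Sparc was lower in BM (7.33 and 5.30 FPKM), as were Col1a1 and Col3a1, which were under 1 FPKM in both columns. The FL column of the gene table stood apart through endothelial and stromal genes: all 6 markers were at least 2-fold lower in its BM column, against 23.6% of all expressed genes (summed level 2091 FPKM under FL and 59.5 FPKM under BM), and Cdh5, the endothelial cadherin gene, was at 457 and 7.97 FPKM. All 5 stromal markers were likewise at least 2-fold lower there (736 and 11.6 FPKM). The 4 hepatocyte markers summed to 18.0 FPKM under FL and 3.10 FPKM under BM of the transcript table. The labels call all of these cells HSCs. In bulk RNA, fewer cells of a type and less RNA per cell cannot be told apart.

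The files identify the genes as ENSMUSG00000041133 (Smc1a), ENSMUSG00000024974 (Smc3), ENSMUSG00000022314 (Rad21), ENSMUSG00000037286 (Stag1), ENSMUSG00000025862 (Stag2), ENSMUSG00000022141 (Nipbl), ENSMUSG00000031858 (Mau2), ENSMUSG00000041408 (Wapl), ENSMUSG00000029202 (Pds5a) and ENSMUSG00000034021 (Pds5b). Smc1a and Stag2 lie on the X chromosome, Rad21 and Nipbl on chromosome 15, Pds5a and Pds5b on chromosome 5, Stag1 on 9, Mau2 on 8, Wapl on 14 and Smc3 on 19. Positions are not printed, because the submitters' notes name the build mm9 and the annotation used for names is GENCODE M21, of a later build.

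The sequences that bear on the isoform results are shown first. Stag1 and Stag2 each carry an optional coding exon of 111 bases (37 codons), exon 31 of 34 in Stag1-206 and exon 31 of 34 in Stag2-203. No other gene of the 10 had a whole inner exon that 1 complete coding transcript in the table holds and another skips. For Smc1a, Smc3, Rad21, Nipbl and Pds5a this could not be otherwise, as each has a single complete coding transcript there. Only Mau2, Wapl and Pds5b could have shown such an exon. The Stag1 and Stag2 exons are printed 5′ to 3′ as in the GENCODE M21 transcripts (both genes on the plus strand). Capitals mark the bases that are the same at the same position in the other gene.
Stag1: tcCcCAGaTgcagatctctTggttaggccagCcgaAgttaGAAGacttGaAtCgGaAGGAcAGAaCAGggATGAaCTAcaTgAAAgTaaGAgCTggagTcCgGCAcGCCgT
Stag2: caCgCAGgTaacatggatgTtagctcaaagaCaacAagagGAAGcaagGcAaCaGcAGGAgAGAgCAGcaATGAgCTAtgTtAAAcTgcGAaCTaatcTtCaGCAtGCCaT
Without gaps, 51 of 111 bases (45.9%) and 10 of 37 encoded residues (27.0%) were the same.

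Wapl has a smaller choice, an 18-base (6-codon) stretch at the start of exon 4 that Wapl-201 and Wapl-205 hold and Wapl-202 skips by a later splice acceptor. It is printed 5′ to 3′ on the plus strand with 30 bases on either side, and the capitals mark the optional bases.
Wapl-201: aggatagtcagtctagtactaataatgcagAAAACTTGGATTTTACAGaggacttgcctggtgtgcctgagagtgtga
Wapl-202: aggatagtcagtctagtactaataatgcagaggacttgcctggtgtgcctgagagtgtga

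The ring genes were the most abundant group, and within it Rad21 differed from its SMC partners. Smc1a, which encodes an ATPase arm of the ring, was at 80.5 FPKM under FL and 116 FPKM under BM of the transcript table. Its partner arm Smc3 was at 39.5 and 54.4 FPKM. Both were thus about 1.4-fold higher in BM (1.44-fold and 1.38-fold). Rad21, the kleisin that closes the ring and is cut to free sister chromatids in mitosis, was at 81.2 FPKM under FL and 67.4 FPKM under BM, a ratio of 0.830. Of the 10 genes it had the only lower value in BM of this table. In the gene table Rad21 had near-equal values, 78.2 FPKM under FL and 84.4 FPKM under BM, whereas Smc1a was at 52.8 and 84.8 FPKM and Smc3 at 25.7 and 41.2 FPKM.

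The STAG genes were both higher in BM of the transcript table. Stag2, which encodes the STAG subunit that is the more common one in many dividing cells, was at 83.2 FPKM under FL and 114 FPKM under BM (1.37-fold). Stag1, whose product occupies the same place on the ring, was at 30.8 and 41.0 FPKM (1.33-fold). Stag2 was above Stag1 in every column. In the gene table Stag2 had the widest gap of the 10 genes, with 41.6 FPKM under FL and 86.7 FPKM under BM (2.08-fold), followed by Stag1 at 18.1 and 31.0 FPKM (1.71-fold).

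The loader genes were the lowest group. Nipbl, the large subunit that stimulates the ring's ATPase, was the lowest of the 10 in every column, at 10.5 FPKM under FL and 16.0 FPKM under BM of the transcript table. Its 1.53-fold difference was the widest of the 10 genes there, by sums over all transcripts. Over complete coding transcripts Stag2 (1.89-fold) and Stag1 (1.54-fold) had wider differences, and Stag1 had lower values than Nipbl (7.42 and 11.4 FPKM). Mau2, the partner that stabilises NIPBL, was at 16.2 and 18.8 FPKM (1.16-fold). In the gene table Nipbl was at 8.88 FPKM under FL and 10.9 FPKM under BM, and Mau2 at 17.4 and 17.0 FPKM.

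Among the release genes Wapl had nearly the same value in both columns of the transcript table, 31.1 FPKM under FL and 32.3 FPKM under BM (1.04-fold). WAPL is the factor that opens the ring. Pds5a, which encodes a HEAT-repeat protein that binds the ring together with WAPL, was at 31.8 and 44.3 FPKM (1.39-fold). Pds5b, its paralogue, was at 14.3 and 18.8 FPKM (1.31-fold). In the gene table the order of differences was another one: Wapl was at 19.4 FPKM under FL and 30.9 FPKM under BM (1.59-fold), Pds5a at 26.8 and 33.4 FPKM (1.25-fold) and Pds5b at 15.3 and 14.9 FPKM (0.972-fold).

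**Figure D1:**
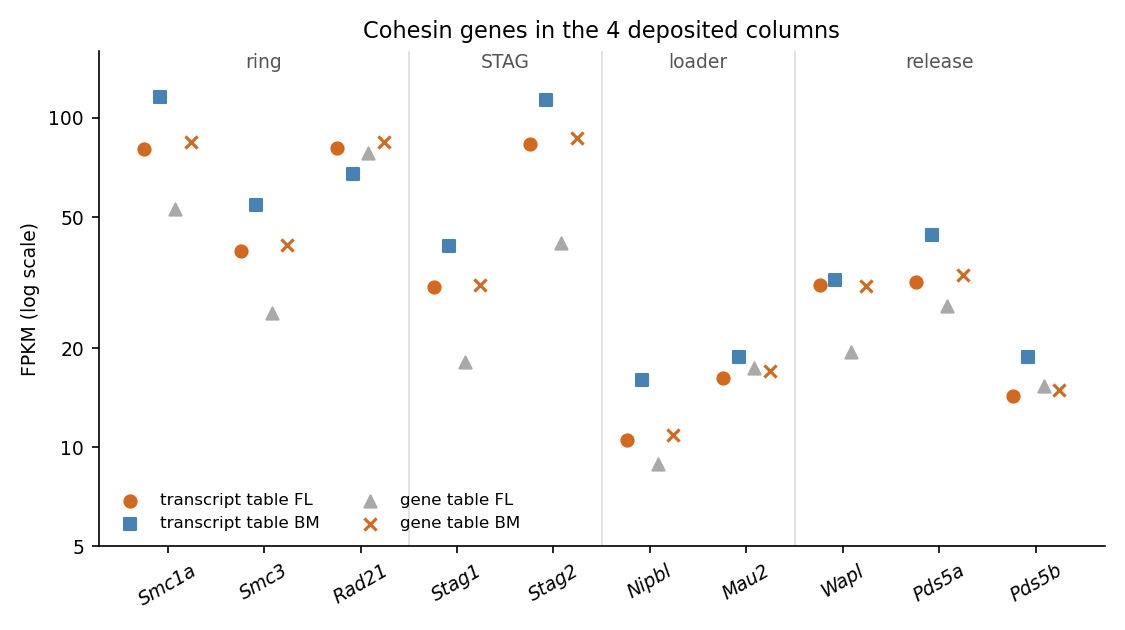
FPKM (log scale) of the 10 genes in each deposited column, grouped by role; each point is 1 authors' value and has no error bar. Transcript-table FL and gene-table BM (both orange) nearly coincide for every gene, the BM values of the transcript table (blue) are the highest for every gene except Rad21, and the FL values of the gene table (grey) are the lowest for 7 of the genes.

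The cohesin genes were next set against all expressed genes. For this the relative log2 ratio was used, log2((BM + 0.1) / (FL + 0.1)) less the median of this ratio among genes reaching 1 FPKM in each column, with expressed meaning at least 1 FPKM in either column. None of the 10 was at least 2-fold apart, while 13.3% of 12220 expressed genes were at least 2-fold higher in BM of the transcript table and 8.82% at least 2-fold lower. The 10 genes are too few, and all above 10 FPKM in both columns where the others reach down to 1 FPKM, for this count to set them apart. The relative ratios ran from -0.27 for Rad21 to 0.60 for Nipbl with a median of 0.43, beside a median of 0.02 over all expressed genes. They were above 0 for 9 of the 10 genes and for 50.8% of all expressed genes. In the ranking of all expressed genes by this ratio, Rad21 stood at percentile 33.4, Wapl at 51.7, Mau2 at 61.0 and the other 7 between 69.0 and 76.9. All 8 erythroid markers, all 6 expressed macrophage markers and 7 of 10 proliferation genes (Mki67 not among them) were at least 2-fold lower in the same column, and their part in these ratios was not tested.

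In the gene table none of the 10 was at least 2-fold apart, with 12.3% of 13834 expressed genes at least 2-fold higher in BM and 23.6% at least 2-fold lower. The median gene of that table was shifted by 0.24 (log2) towards BM. Relative to it the cohesin genes ran from -0.28 for Pds5b to 0.82 for Stag2, with a median of 0.25 beside -0.07 over all expressed genes. They were above 0 for 7 of 10 genes, against 47% of all. Without centring, the ratio of Stag2 was 1.06 and passed 2-fold, those of Mau2 and Pds5b were -0.03 and -0.04, and that of Rad21 was 0.11 in place of -0.13, so the sign of Rad21 in this table depends on the scaling. The endothelial and stromal markers were far higher in FL of this table, and their part in these ratios was not tested. Gene-table BM and transcript-table FL hold nearly the same values and stand on opposite sides of their comparisons, so a direction in one table gives no independent support to that in the other.

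**Figure D2:**
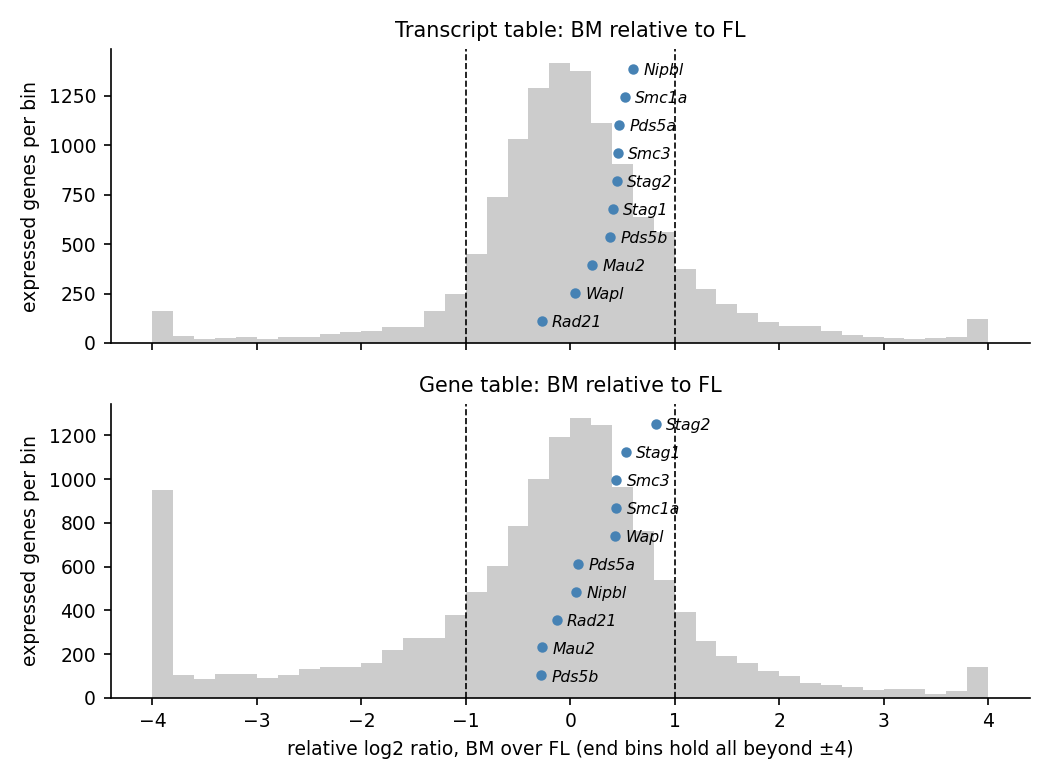
Relative log2 ratio of BM over FL (x axis) for expressed genes (grey bars, genes per bin of 0.2) with the 10 cohesin genes as labelled points, whose height is only for legibility. Dashed lines mark 2-fold; all 10 lie between them in both tables, with Rad21 lowest in the transcript table and Stag2 highest in the gene table.

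Because FPKM is scaled by length, levels of partner genes can be set side by side within a column, which also removes any scaling of whole columns. The ratio of Smc1a to Smc3 was 2.04 in FL and 2.14 in BM of the transcript table, and 2.06 in both FL and BM of the gene table. Of the 8 pairs computed this had the narrowest range over the 4 columns. Over complete coding transcripts the ratio of Smc1a to Smc3 was lower, at 1.42 in FL and 1.44 in BM of the transcript table. Rad21 to Smc3 was 2.05 in FL and 1.24 in BM of the transcript table, and 3.05 in FL and 2.05 in BM of the gene table. Among the 5 pairs plotted this was the widest spread over the columns. Stag2 to Stag1 was 2.70 in FL and 2.78 in BM of the transcript table, and 2.30 and 2.80 in the gene table. Nipbl was under Mau2 in every column, with ratios of 0.648 and 0.850 in the transcript table and 0.510 and 0.641 in the gene table. Pds5a exceeded Pds5b by 2.23 and 2.36 in the transcript table and by 1.75 and 2.24 in the gene table. Wapl to Nipbl, releaser to loader, was 2.97 in FL and 2.02 in BM of the transcript table. Between the headers of the gene table it ran the other way, with 2.19 in FL and 2.83 in BM. The columns that hold nearly the same values thus had the higher ratio in each table (2.97 and 2.83).

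**Figure D3:**
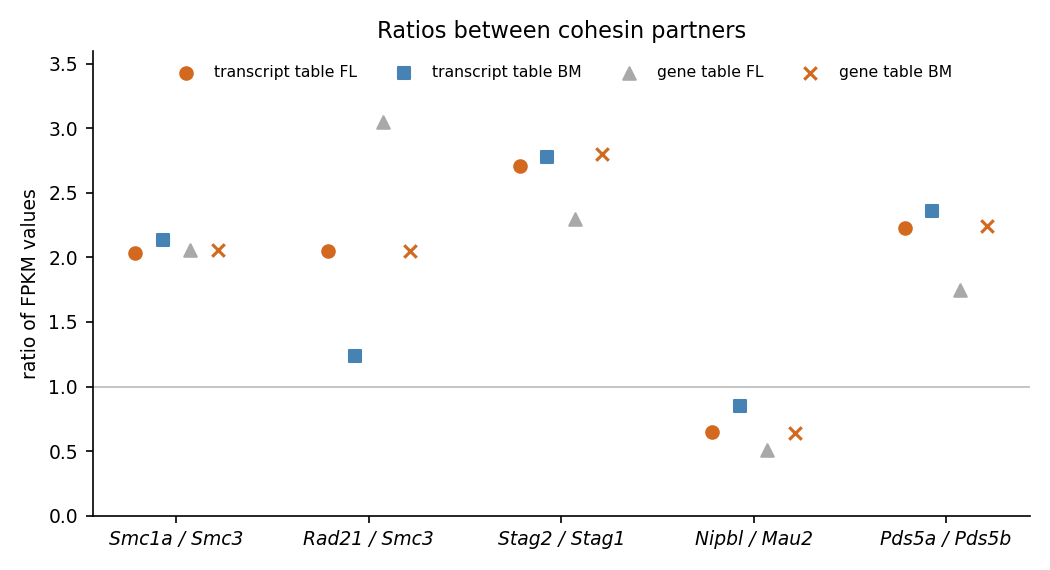
Ratio of the FPKM values of 5 partner pairs in each column (y axis, linear from 0; the grey line marks equal values). Smc1a to Smc3 stays between 2.04 and 2.14, while Rad21 to Smc3 runs from 1.24 in BM of the transcript table to 3.05 in FL of the gene table.

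By role, summed levels in the transcript table were 201 FPKM under FL and 238 FPKM under BM for the 3 ring genes (1.18-fold), 114 and 155 FPKM for the STAG genes (1.36-fold), 26.7 and 34.8 FPKM for the loader genes (1.30-fold) and 77.3 and 95.3 FPKM for the release genes (1.23-fold). Under FL of that table Stag2, Rad21 and Smc1a led, all from 80.5 to 83.2 FPKM, and under BM Smc1a and Stag2 led, with Rad21 next. Over complete coding transcripts, however, Rad21, Smc1a and Stag2 were at 81.2, 54.1 and 19.1 FPKM under FL, so the place of Stag2 and most of the STAG sum rest on short models with a missing end. Without replicate values no neighbours in these orders can be told apart. Against all expressed genes of that table the 10 genes ranged from percentile 45.8 (Nipbl) to 90.6 (Stag2) in FL and from 56.0 (Nipbl) to 95.0 (Smc1a) in BM.

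At the level of single transcripts, 10 of 10 genes had the same leading transcript in FL and BM. For 3 genes, Rad21, Nipbl and Pds5a, the table linked a single transcript, so this was fixed and nothing can be said of their isoforms. How often all genes with several transcripts keep their leading transcript was not computed. Of the 28 transcripts of all 10 genes that reached 1 FPKM in FL and in BM, 21 were higher and 7 lower in BM. The share of all single transcripts with a higher value in BM was not computed, so this split does not set the genes apart. At least 2-fold higher were 3 (Stag2-203, Stag1-214 and Smc1a-202) and at least 2-fold lower were 2 (Stag2-205 and Stag2-206), against 11.6% and 8.78% of 21098 single transcripts in the table. These counts lie near those shares and do not set the cohesin transcripts apart. The Cufflinks program, named in the submitters' notes, divides reads between transcripts that overlap by fitting a model, which makes each isoform value an estimate.

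Stag2 held 3 of these 5 transcripts. Its complete coding transcripts, Stag2-201, Stag2-202 and Stag2-203, summed to 19.1 FPKM under FL and 36.1 FPKM under BM, a 1.89-fold difference where the whole gene had 1.37-fold. Stag2-203, with the 111-base exon printed above, was at 5.39 FPKM under FL and 12.5 FPKM under BM (2.33-fold). Stag2-201, without it, was at 13.7 and 23.0 FPKM (1.69-fold). Most of the summed level came instead from short models with a missing end, 75.2% in FL and 66.8% in BM. Stag2-204, of 294 bases, led with 43.7 and 67.2 FPKM, and Stag2-205, of 295 bases, was at 15.5 and 7.38 FPKM. Both are shorter than the average library fragment of 300 nt given in the protocol. The relative log2 ratio of Stag2 was 0.45 over all transcripts and 0.94 over complete coding transcripts.

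Stag1 likewise had much of its level in short models. Stag1-212, an intron-retaining model of 558 bases, was at 11.2 FPKM under FL and 12.3 FPKM under BM and led in both columns with 36.5% and 30.1% of the sum. The complete coding transcripts summed to 7.42 and 11.4 FPKM (1.54-fold). Nearly all of that was Stag1-206, with the optional exon, at 6.49 and 10.8 FPKM, while Stag1-201, without it, was at 0.930 and 0.628 FPKM. Over complete coding transcripts the ratio of Stag2 to Stag1 was 2.57 in FL and 3.16 in BM.

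The share of the optional exon was high in Stag1 and low in Stag2 in both columns. Among Stag1 transcripts that run over both neighbouring exons, 92.1% of the FPKM under FL and 96.4% in BM held the exon. For Stag2 those shares were 28.3% and 34.8%. The gap between the genes was far wider than the gap between the columns, and the latter could not be set against any replicate error. First exons differ as well: Stag2-203 starts with 369 bases and Stag2-201 with 134 bases of its own, and Stag1-206 with 349 bases where Stag1-201 has 184. These shares therefore rest on whole transcript models and not on reads over the exon.

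**Figure D4:**
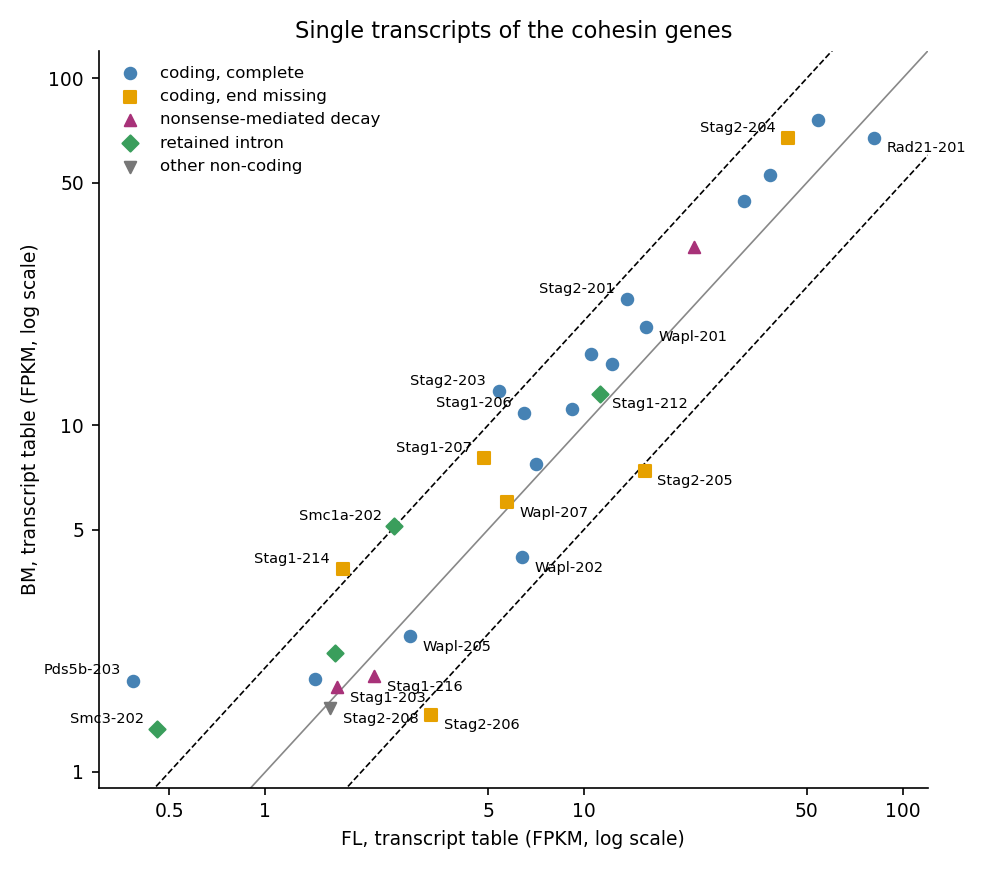
FPKM of each transcript of the 10 genes at 1 FPKM or more in either column, FL (x axis) against BM (y axis) of the transcript table, both on log scales; the colour and shape give the annotated class, the solid line equal values and the dashed lines 2-fold. Stag2-203 lies above the upper 2-fold line and Stag2-205 and Stag2-206 below the lower one, while Rad21-201 lies under the line of equal values.

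Wapl had like sums in both columns while its isoforms differed. Wapl-201 was at 15.7 FPKM under FL and 19.2 FPKM under BM. Wapl-202, which skips the 18 bases printed above, was at 6.39 and 4.16 FPKM. Among the transcripts that hold either form of exon 4, 74.4% of the FPKM under FL and 83.9% in BM carried the 18 bases. The last exon has 2359 bases in Wapl-201, 456 bases in Wapl-202 and 143 bases in Wapl-205, so a difference at the 3′ end and one at exon 4 cannot be told apart from these values.

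Of the remaining genes with several isoforms, Smc1a and Smc3 had leading shares within a few points in both columns, and Pds5b had a wider gap. Smc1a-201, the complete form, made up 67.2% of Smc1a in FL and 65.2% in BM, and Smc1a-206, annotated as a target of nonsense-mediated decay, 27.5% and 28.1%. Smc3-201 held 96.6% and 96.9% of Smc3. Mau2-201 and Mau2-202, both complete, were at 9.15 and 7.07 FPKM under FL, with 11.1 and 7.72 FPKM under BM. Pds5b-201 was at 12.2 and 15.0 FPKM (85.6% and 80.2% of Pds5b), Pds5b-202 at 1.43 and 1.86 FPKM, and Pds5b-203, a shorter coding form of 2900 bases, at 0.385 and 1.83 FPKM (2.69% and 9.77%).

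Other genes of the cohesin cycle were mostly at lower values in BM of the transcript table. Of the 11 cohesion establishment genes, 8 were expressed, 1 was at least 2-fold higher and 2 lower by as much in BM, with a median of -0.45. Over all expressed genes these shares were 13.3% and 8.82%. Esco1, which acetylates SMC3 through the whole cell cycle, was the higher one, at 3.47 FPKM under FL and 8.03 FPKM under BM. In the gene table Esco1 was at 5.86 FPKM under FL and 5.99 FPKM under BM, so its sum may miss part of the gene. Cdca5, the gene of sororin, which shields acetylated cohesin from WAPL, was at 32.4 and 13.5 FPKM, and Chtf18, of the clamp loader used in cohesion, at 26.5 and 11.7 FPKM. Esco2, the S-phase acetyltransferase gene, was at 6.36 and 5.17 FPKM, and Hdac8, which encodes the SMC3 deacetylase, at 15.5 and 19.3 FPKM. Tipin, a replication fork gene, was the highest of the list in BM, at 83.4 and 67.2 FPKM, and its fork partner Timeless was at 29.7 and 18.2 FPKM. Wdhd1 and Ddx11 were under 1 FPKM in both columns of the transcript table, yet at 24.8 and 12.2 FPKM under the BM header of the other table, so their sums miss most of the gene.

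All 9 protection and cleavage genes had relative ratios at or under -0.44, and 3 passed 2-fold in that direction, as did 8.82% of all expressed genes (median -0.79): Espl1, Plk1 and Aurkb. Espl1, the gene of separase, the protease that cuts RAD21, was at 19.1 FPKM under FL and 6.35 FPKM under BM. The mitotic kinase genes Plk1 and Aurkb were at 62.9 and 69.7 FPKM under FL, with 14.0 and 24.7 FPKM under BM. Sgo1, whose product protects centromeric cohesin, was at 17.4 and 10.1 FPKM. The phosphatase scaffold gene Ppp2r1a was the most abundant, at 133 and 98.0 FPKM, followed in BM by the securin gene Pttg1 at 42.0 and 27.5 FPKM. Of the proliferation genes 7 of 10 passed 2-fold in the same direction (median -1.11), among them the cyclin genes Ccnb1 (74.1 and 22.2 FPKM) and Ccne1 (36.9 and 7.43 FPKM). Ccna2, Cdk1, Birc5, Mcm5 and Cdc20 also passed 2-fold, and Mcm2 and Cdk1 led in BM at 95.0 and 75.6 FPKM (the sum for Mcm5, 69.2 FPKM under FL, misses part of the gene); the proliferation genes' part in the ratios of the protection and cleavage genes was not tested.

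Among loop and boundary partners, 7 of 8 were expressed, 0 were at least 2-fold apart and 3 had a relative ratio above 0 (median -0.02). Ldb1, a factor of enhancer looping, was at 172 FPKM under FL and 170 FPKM under BM. Ctcf was at 70.3 and 72.4 FPKM. CTCF, which halts loop extrusion by cohesin, thus had near-equal transcript levels in both columns. For the related SMC complexes, condensin had 2 of 8 genes (Ncaph and Ncapd2) at or past 2-fold lower under BM (8.82% of all expressed genes were) and a median of -0.18. Ncaph was at 36.4 and 8.27 FPKM, and the relative log2 ratio of Ncapd2 was -1.02. Its most abundant gene under BM was Ncaph2, at 67.5 and 56.0 FPKM, and its SMC genes stood with Smc2 at 34.9 and 33.2 FPKM and Smc4 at 42.5 and 54.7 FPKM. The SMC5/6 complex had 5 of 7 genes expressed, 0 at least 2-fold apart and a median of -0.35, and its SMC genes Smc5 and Smc6 were at 9.92 and 13.4 FPKM under FL, with 12.8 and 20.2 FPKM under BM. Its most abundant genes under BM were Nsmce4a, at 95.5 and 62.2 FPKM, and Nsmce1, at 60.4 and 35.5 FPKM. The sum for Smc5 misses part of the gene, which stood at 19.0 FPKM under the BM header of the gene table. The cohesin median of 0.43 in the transcript table was above those of these lists. In the gene table it was 0.25, below the loop and boundary partners (0.35) and the cohesion establishment genes (0.39). There it was above condensin (0.06), the SMC5/6 complex (-0.02) and the protection and cleavage genes (0.07). The difference between lists was not tested in either table.

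Germ cell versions of the subunits were low. Rec8, the meiotic counterpart of Rad21, was at 1.96 FPKM under FL and 5.42 FPKM under BM. Stag3, the meiotic STAG gene, was at 1.10 and 2.52 FPKM. Both Rec8 and Stag3 were at least 2-fold higher in BM, as were 13.3% of all expressed genes, and their FL values lay near the 1 FPKM threshold. Smc1b was listed at 0 in FL and was at 0.185 FPKM under BM, and Rad21l was listed at 0 in both columns. Between the headers of the gene table the direction was the opposite. Rec8 was at 3.53 FPKM under FL and 2.05 FPKM under BM there, and Stag3 at 3.01 and 1.15 FPKM. The columns that hold nearly the same values thus had the lower level of both genes in each table.

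**Figure D5:**
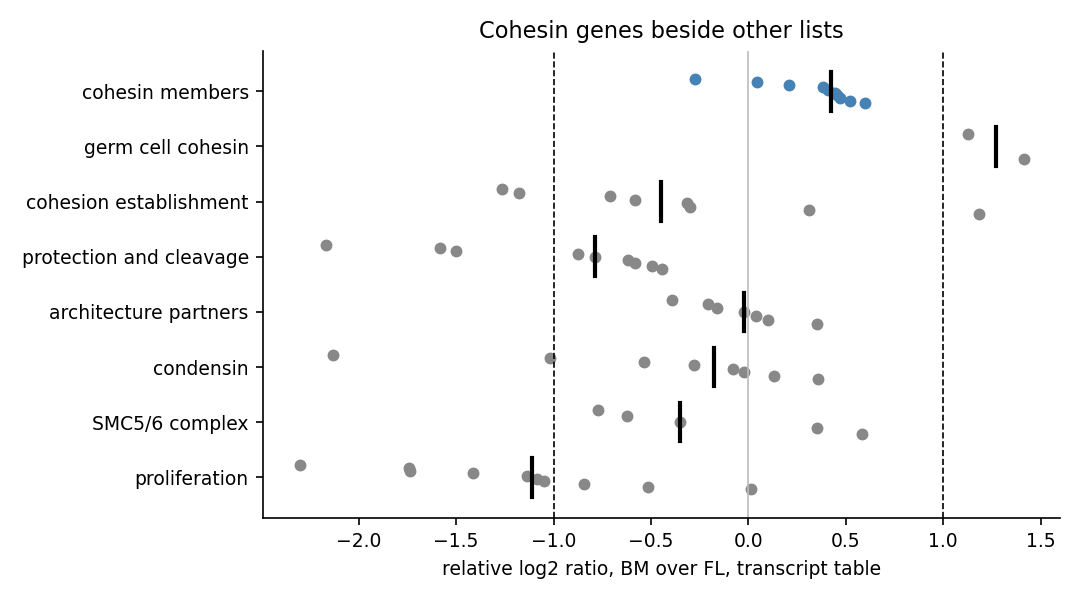
Relative log2 ratio of BM over FL in the transcript table (x axis) for the expressed genes of each list, 1 point per gene, spread vertically for legibility; black bars are list medians and dashed lines mark 2-fold. The cohesin genes (blue) lie from -0.27 to 0.60, while the protection and cleavage genes all lie at or under -0.44.

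By likeness of pattern, the 5 genes nearest to the median cohesin gene over the 4 columns were Smim3, Lpin2, Glrx, Socs7 and Tsc1, out of 7452 other genes at 5 FPKM or more in every column. Likeness was the Euclidean distance between log2(FPKM + 0.1) profiles, each centred on its own mean, and was 0.05 for Smim3 and 0.07 for Tsc1. Smim3 was at 11.0 FPKM under FL and 14.8 FPKM under BM of the transcript table and at 8.14 and 11.5 FPKM in the gene table. With 4 columns, of which a pair holds nearly the same values, this is a description of level only.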

How the data were processed

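RNA of sorted HSCs was polyadenylated-selected and sequenced in paired-end mode, per the labels' protocols, which name read lengths of 100 and 75 nt without assigning them; the molecule field reads genomic DNA. The authors deposited FPKM values in 2 tables, per gene and per transcript, with 1 value per column. The submitters' processing notes list TopHat, Cufflinks, featureCounts, Subread, edgeR and the mouse build mm9, without role or version; they name no gene annotation. By name alone the BM headers match the adult bone marrow samples, and the FL headers the fetal liver of the protocol; as the tables disagree, 1 of these readings may be wrong.

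Transcripts were linked to genes through GENCODE M21 by identifier (76507 linked; 51 of 74 annotated transcripts of the cohesin genes were in the table) and FPKM summed per gene. An unlinked transcript lowers the sum of its gene. Transcripts flagged in M21 as missing a start or end are called end-missing. The pseudocount was 0.1 FPKM, the expression threshold 1 FPKM and the threshold of difference 2-fold. Ratios were tested on simulated data. With 1 value per column no test was made and no replicate could be left out. The genes and lists were chosen with earlier results of these data known. Named were all 10 cohesin genes, their transcripts of at least 10% share, the members of other lists at least 2-fold apart, the 2 highest in BM and the 5 genes of nearest pattern; further names, the optional exons and the partner ratios were chosen after values were seen. Chtf8 and Eid3 were matched in neither table, and Nsmce3 in the gene table only. Python 3.11.15, numpy 2.4.6, pandas 2.3.3, Biopython 1.88 and matplotlib 3.10.9 were used.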

Additional observations from a re-analysis of the deposited data

How the results depend on the processing

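The median relative log2 ratio of the 10 cohesin genes in the transcript table, 0.43, was 0.43 with a pseudocount of 0.01 FPKM and 0.42 with 1 FPKM, 0.43 without centring, 0.42 under upper-quartile scaling, 0.48 over protein-coding transcripts, 0.42 over the highest transcript of each gene, and, in alternatives chosen after seeing the data, 0.49 over complete coding transcripts and 0.45 without Rad21. In each of these settings except the last, and with a filter of 5 FPKM or none, 0 of the genes were 2-fold apart and 9 were above 0. At a threshold of 1.5-fold 1 gene passed in the transcript table (Nipbl) and 1 in the gene table (Stag2). Without centring, 1 gene of the gene table passed 2-fold (Stag2). The count of all genes at least 2-fold apart in the transcript table, 2699, was 4310 with no filter on low values and 1499 at 5 FPKM. The median share of the leading transcript in BM, 72.7%, was 90.2% over protein-coding transcripts. The choice of transcripts moved Stag1 most among single genes, from 0.17 to 0.75, then Stag2 (0.45 to 0.94) and Wapl (0.05 to 0.33), while Rad21 stayed between -0.27 and -0.23. No paired analysis was possible because the columns carry no replicate number. The depth behind each value is unknown.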
